A study of Mus musculus with 6 samples.

Results

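The 10 genes described here are 6 fibroblast growth factor (FGF) ligands, Fgf1, Fgf2, Fgf7, Fgf9, Fgf10 and Fgf18, and the 4 receptor tyrosine kinases that bind FGFs, Fgfr1, Fgfr2, Fgfr3 and Fgfr4, out of 21887 protein-coding mouse genes. They were listed by name, with earlier results of these data known. H3K27ac, the acetyl mark on lysine 27 of histone H3 that active promoters and enhancers carry, was mapped with CUT&RUN in cells sorted from embryonic mouse lungs at E16.5, the day of development. Mesothelium, the covering layer of the lung, was sorted as PDPN+EPCAM-CD45-CD31-DAPI- (2 libraries), and epithelium, the lining of the airways and future air sacs, as PDPN+EPCAM+CD45-CD31-DAPI- (2 libraries). Both came from embryos of Myrf Fl/Fl matings, for which no Cre is named, and the series calls the sorted mesothelial cells wildtype. Lungs were pooled, and nothing says that the 2 libraries of a cell type came from separate pools, so the spread behind each p-value may be only technical.

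FGF ligands are secreted and bind their receptors together with heparan sulphate chains on the cell surface. The activated receptor signals through the docking protein FRS2 and the RAS-ERK cascade, which switches on ETS factors such as ETV5 and the feedback inhibitors of the Sprouty and Spred families. In the mouse lung, FGF10 from the mesenchyme acts on FGFR2 in the epithelium and drives branching, while FGF9 from mesothelium and epithelium acts back on the mesenchyme.

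The deposited lists held 39010 and 41532 broad peaks in the mesothelium libraries, against 47873 and 46633 in the epithelium libraries. They covered 35.7 and 39.8 Mb in mesothelium and 44.4 and 41.4 Mb in epithelium. The titles give cell numbers of 25k and 100k for mesothelium replicates 1 and 2, and of 100k and 200k for epithelium replicates 1 and 2. The read depth is unknown from these lists, and a stretch without a called peak is not shown to lack acetylation. The measure used throughout is the length under peaks, in kb, in a gene's domain: the gene body plus up to 50 kb on each side, cut midway to the next coding gene.

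The sort labels were checked against marker genes. Summed over 10 mesothelial markers, domains held 30.3 and 70.3 kb in mesothelium replicates 1 and 2, against 3.17 and 6.84 kb in epithelium. Of these, Wt1, Gpm6a, Bnc1, Upk1b, Muc16 and Aldh1a2 were called longer in mesothelium. Lrrn4 and Rspo1 were not called (limma adjusted p = 0.17 and 0.4), and Upk3b, with 0 and 0.835 kb in mesothelium, was not tested. Msln, which encodes mesothelin, was not called either. It held 0.544 and 0.893 kb in mesothelium, against 1.19 and 4.29 kb in epithelium (log2 difference -1.18, limma adjusted p = 0.44). Summed over 10 epithelial markers, they held 27 and 5.15 kb in mesothelium, against 136 and 158 kb in epithelium, so mesothelium replicate 1 carried more epithelial-marker length than replicate 2. Nkx2-1, Foxa2, Cdh1, Cldn18 and Grhl2 were called longer in epithelium, and Epcam, Sox9, Elf3 and Krt8 were not called. Epcam, the gene of the sort antigen, held 0.685 and 1.024 kb in mesothelium, against 5.35 and 4.475 kb in epithelium (limma adjusted p = 0.1). The surfactant gene Sftpc had no peak in mesothelium and only 0 and 0.299 kb in epithelium, so it did not separate the cell types. Fibroblast and mesenchymal markers, which no negative antigen of the gate targets, summed to 24.0 and 33.8 kb in mesothelium, against 2.78 and 2.72 kb in epithelium. Most of the mesothelial sum lay at Tbx5 (8.365 and 12.66 kb) and Col3a1 (9.052 and 12.31 kb), both called longer in mesothelium. Tbx4, Col1a1, Col1a2 and Pdgfrb were not called. Tcf21 held 0.354 and 0.571 kb in mesothelium, Pdgfra held 1.09 and 0 kb, and Twist1 and Gli1 had no peak in any library. Endothelial markers summed to 11.6 and 10.5 kb in mesothelium, with Cdh5, Erg and Sox17 at no peak, and to 3.00 and 5.78 kb in epithelium. Kdr and Tek were called longer in mesothelium. Pecam1, which encodes the gate antigen CD31, held 5.43 and 1.525 kb in mesothelium, against 2.305 and 1.92 kb in epithelium (limma adjusted p = 0.78). Immune markers summed to 3.53 and 0.721 kb in mesothelium, where Ptprc and Spi1 had no peak, and to 12.3 and 26.7 kb in epithelium, nearly all of it at Runx1, which was called longer in epithelium. Smooth muscle markers (0.390 to 3.19 kb) and lymphatic markers (1.02 to 2.14 kb) had little length in any library. The part of other cell types in the results below was not tested.

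The receptor gene Fgfr2 and the ligand gene Fgf1 carried more acetylated length in epithelium, and the ligand genes Fgf2 and Fgf9 carried more in mesothelium. In sorted bulk cells, fewer acetylated cells and less acetylation per cell cannot be told apart. Fgf10 and Fgfr1 had short, scattered peaks in all 4 libraries, and Fgf7, Fgf18 and Fgfr4 had few peaks anywhere. The lengths were compared on log2(kb + 0.5) with limma over the 10483 domains that averaged 0.5 kb or more, and a domain was called at an adjusted p under 0.05. Of the 10 FGF genes, 8 entered the test, since Fgf7 and Fgf18 lay under that minimum. The calls were 2 of these 8 longer in mesothelium, against 1.41% of all tested domains, and 2 longer in epithelium, against 2.53% (3.94% in either direction). Epithelium-only peaks at the ends of Fgf1 and Fgfr2 were known when the genes were listed, so these counts are not independent of the choice. The median log2 difference of the 8 was -0.35, against 0.03 over all tested domains. The libraries of the cell types did not overlap in 6 of the 8, against 47.8% of all tested domains. Requiring a −log10 q of 2 or more for every peak left 0 limma calls among the FGF genes and 0 over all domains, with 960 domains at an unadjusted p under 0.05. Scaled to total covered length, 0 FGF domains were called longer in mesothelium and 1, Fgfr2, in epithelium, and over all domains the split was 88 against 104, where the main one was 148 against 265.

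**Figure D1:**
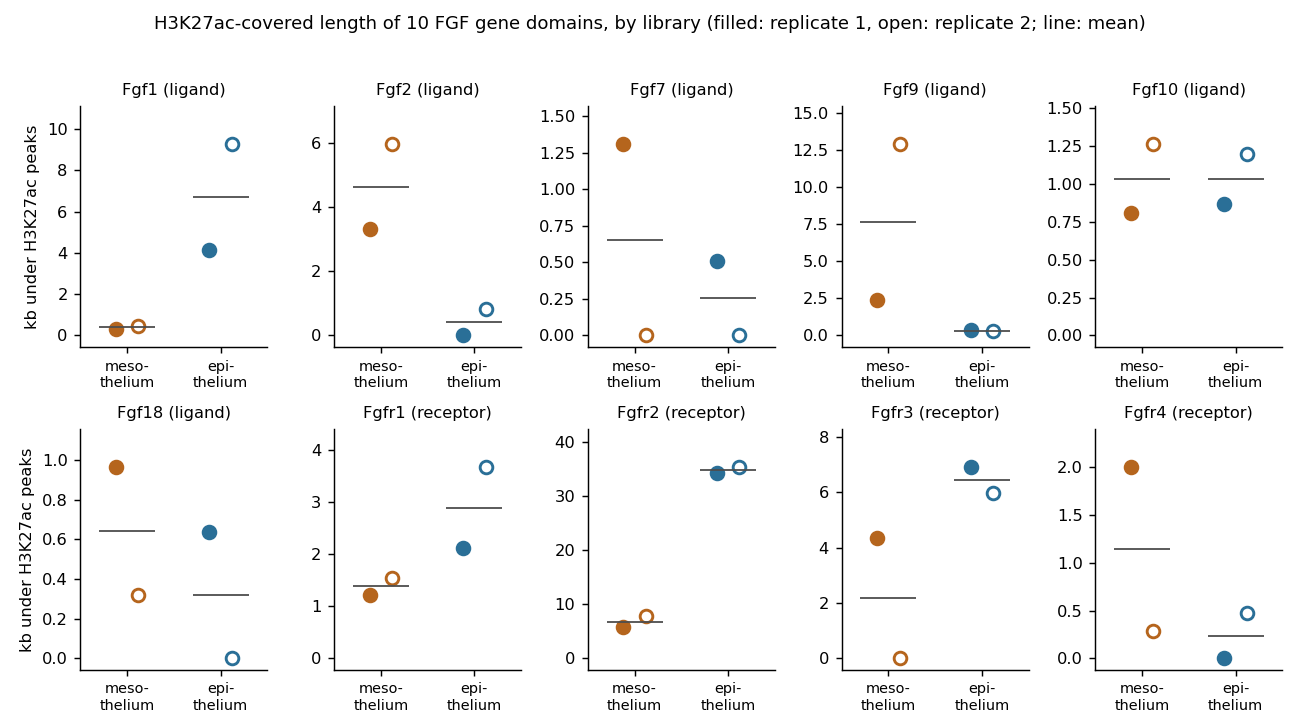
Length under H3K27ac peaks (kb) in the domain of each FGF gene, by library, with mesothelium on the left and epithelium on the right of each panel; points are libraries and lines are means of 2. Fgfr2 lies at 34.3 and 35.3 kb in epithelium, far above both mesothelium libraries, while Fgf2 and Fgf9 lie higher in mesothelium; each panel has its own axis.

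Fgfr2, the receptor for FGF7 and FGF10 on lung epithelium, was the most densely covered of the 10 genes in both epithelium libraries, by the share of its domain under peaks. Its domain held 5.76 and 7.75 kb of peaks in mesothelium and 34.3 and 35.3 kb in epithelium. All of the mesothelial values lay below all of the epithelial ones. The difference was -2.24 on the log2 scale, mesothelium minus epithelium (SE 0.35, limma adjusted p = 0.00092). As a share of the domain's 204.4 kb, peaks covered 2.82% and 3.79% in mesothelium and 16.8% and 17.3% in epithelium. These shares stood at the 75.5th and 76.0th percentiles of all coding genes in mesothelium, and at the 97.6th and 98.0th in epithelium. The call was lost with a pseudocount of 0.1 kb (adjusted p = 0.063) and when peaks needed a −log10 q of 2 or more (adjusted p = 0.12), while the log2 difference stayed between -2.86 and -2.09 over 12 alternatives.

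Most of the epithelial length of Fgfr2 lay in the gene itself. The gene body (chr7:130162451-130266808, minus strand, mm10) held 4.48 and 3.96 kb in mesothelium, against 34.3 and 33.1 kb in epithelium. The 26.1 kb of the gene next to its start held 0 and 1.99 kb in mesothelium, against 15.1 and 13.7 kb in epithelium. The 26.1 kb at the far end held 0.951 and 1.97 kb in mesothelium, against 0 and 5.09 kb in epithelium, so there the libraries overlapped. In the domain, the widest single peak measured 1.58 and 2.06 kb in mesothelium, against 8.40 and 5.27 kb in epithelium. The widest peaks were thus wider in epithelium. Ranked by the authors' −log10 q within its own list, the best Fgfr2 peak stood in the top 1.6% and 10.3% of mesothelium peaks, and in the top 8.3% and 11.4% of epithelium peaks. Of 21 merged regions in the gene body, 7 were present in both epithelium libraries and in no mesothelium library, 6 in 3 libraries and 8 in 1 library. No region was present in both mesothelium libraries and absent from epithelium.

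The promoter windows of Fgfr2, Fgfr3, Fgf10 and Fgf18 are shown because they differ in peaks and in base content. Each is the 250 bases before a RefSeq start (assembly GRCm38.p6, the assembly mm10 names), written 5′ to 3′ on the gene's strand, with capitals marking every CG pair. Fgf1 and Fgfr1 are named only, and the windows of Fgf2 and Fgf9, which lie inside the annotated gene span in whole or in part, are given by their counts.
Fgfr2, chr7:130266809-130267058, minus: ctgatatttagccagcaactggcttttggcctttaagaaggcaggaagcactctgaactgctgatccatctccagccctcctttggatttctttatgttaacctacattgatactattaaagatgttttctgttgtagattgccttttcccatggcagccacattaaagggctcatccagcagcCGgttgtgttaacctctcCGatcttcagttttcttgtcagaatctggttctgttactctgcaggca
Fgfr3, chr5:33721474-33721723, plus: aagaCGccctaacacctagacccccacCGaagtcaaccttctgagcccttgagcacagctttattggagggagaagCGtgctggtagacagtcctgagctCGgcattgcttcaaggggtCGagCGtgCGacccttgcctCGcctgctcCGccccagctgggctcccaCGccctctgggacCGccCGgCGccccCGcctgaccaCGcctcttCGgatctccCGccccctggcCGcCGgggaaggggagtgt
Fgf10, chr13:118714449-118714698, plus: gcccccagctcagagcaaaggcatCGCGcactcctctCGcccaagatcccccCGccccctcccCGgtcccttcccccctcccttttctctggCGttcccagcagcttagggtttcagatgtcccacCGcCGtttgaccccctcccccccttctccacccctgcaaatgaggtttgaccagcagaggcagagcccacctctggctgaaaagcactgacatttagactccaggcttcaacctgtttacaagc
Fgf18, chr11:33147401-33147650, minus: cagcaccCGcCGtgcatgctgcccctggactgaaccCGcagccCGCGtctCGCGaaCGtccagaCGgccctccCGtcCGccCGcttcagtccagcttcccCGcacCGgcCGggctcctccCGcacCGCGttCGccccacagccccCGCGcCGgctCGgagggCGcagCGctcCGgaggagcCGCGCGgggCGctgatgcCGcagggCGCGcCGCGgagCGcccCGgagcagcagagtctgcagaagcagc

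The Fgfr2 window held only 2 CG pairs, at the 18.8th percentile of 32841 RefSeq promoter windows of the same length, whose median was 6. A peak of epithelium replicate 2 covered all 250 bases of it, and the nearest peak of epithelium replicate 1 began 0.66 kb from the start. In mesothelium the nearest peaks were 22.9 kb away in replicate 1 and 1.2 kb away in replicate 2. The Fgfr3 window held 19 CG pairs and no peak, with the nearest peak 14.1 and 36.8 kb from the start in mesothelium, and 0.14 and 0.54 kb in epithelium. The Fgf10 and Fgf18 windows held 8 and 37 CG pairs, and no library had a peak in either. A second annotated Fgfr3 start has 24 CG pairs in its window, where peaks covered 0 and 0 of the 250 bases in mesothelium, against 250 and 42 in epithelium. The Fgf2 window held 20 CG pairs and no peak. Of the 4 printed, the window with the most CG pairs, that of Fgf18, was without a called peak. The one with the fewest, that of Fgfr2, was covered in 1 epithelium library. The printed windows were chosen for such differences, and the other windows did not keep this order. The second Fgfr3 window, with 24 CG pairs, was covered in whole or in part in epithelium, and the Fgf7 window, with 6, held no peak.

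The same windows were searched on both strands for 6 motifs: the ETS core CCGGAA, the TEAD core GGAATG, the NKX2 core CAAGTG, the forkhead core TGTTTAC, the AP-1 site TGANTCA and the GATA core AGATAA. The Fgf10 window held TGTTTAC, its first base at position -11 from the start, which 3.17% of all windows held. The Fgf9 window held AGATAA at -224 (9.99% of all windows), the Fgf7 window CAAGTG at -177 (11.6%) and the Fgfr4 window CCGGAA at -178 (12%). None of the 6 was in the windows of Fgfr2, Fgfr3, Fgf2 or Fgf18. These matches are letters in a short window and were not tied to any measured value. GGAATG and TGANTCA, in 12.6% and 6.75% of all windows, were in none of the FGF windows searched.

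Beyond the end of Fgfr2, the gene desert up to Wdr11, which encodes a WD-repeat protein, was among the intergenic intervals with the most length under peaks in epithelium. This interval (chr7:129635739-130162450, 526.7 kb) held 2.62 and 5.16 kb of peaks in mesothelium and 39.6 and 48.0 kb in epithelium. It had 5 and 7 peaks in mesothelium, against 26 and 31 in epithelium. The cell types did not overlap in either measure. The log2 difference was -3.02 (SE 0.37, limma adjusted p = 5.2e-05 over 2001 tested intervals of at least 100 kb, of which 3.45% were called longer in epithelium and 6.10% in either direction). By length under peaks, not divided by the length of the interval, it ranked 696 and 320 of 2967 intervals in mesothelium, and 10 and 2 in epithelium. Peaks covered 0.498% and 0.979% of the interval in mesothelium, and 7.52% and 9.11% in epithelium, shares that were not ranked. The last 50 kb of the interval before Fgfr2 also belong to the Fgfr2 domain. Without epithelium replicate 1 or 2 the adjusted p was 0.06 and 0.081, at log2 differences of -3.24 and -2.85.

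The epithelial length in the interval was densest at its Wdr11 end and not next to Fgfr2. The first 100 kb from Wdr11 held 1.26 and 0.693 kb in mesothelium, against 17.4 and 19.5 kb in epithelium. The stretch from 100 to 200 kb held 0 and 0.374 kb in mesothelium, against 9.36 and 7.19 kb in epithelium. The stretch from 300 to 400 kb held 0.456 and 0 kb in mesothelium, against 8.01 and 9.83 kb in epithelium. In contrast, the last 26.7 kb before Fgfr2 held 0 and 2.38 kb in mesothelium, against 0 and 1.19 kb in epithelium, so the cell types overlapped there. Of 51 merged regions in the interval, 11 were epithelium-only, or 21.6% against 3.31% of all 132212 merged regions, 3 were in 3 libraries and 37 were in 1 library. None was mesothelium-only. The widest epithelium-only region (chr7:129657897-129666991, 9.1 kb) lay 604.4 kb from the Fgfr2 start and overlapped the long noncoding RNA genes Gm33122 and Gm39094. The next widest (chr7:129981610-129986918, 5.31 kb) lay 282.5 kb from the Fgfr2 start and overlapped no annotated gene. The epithelium libraries had 24.97 kb of the interval in common out of 62.6 kb in either, and the mesothelium libraries had 0 kb in common out of 7.78 kb.

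**Figure D2:**
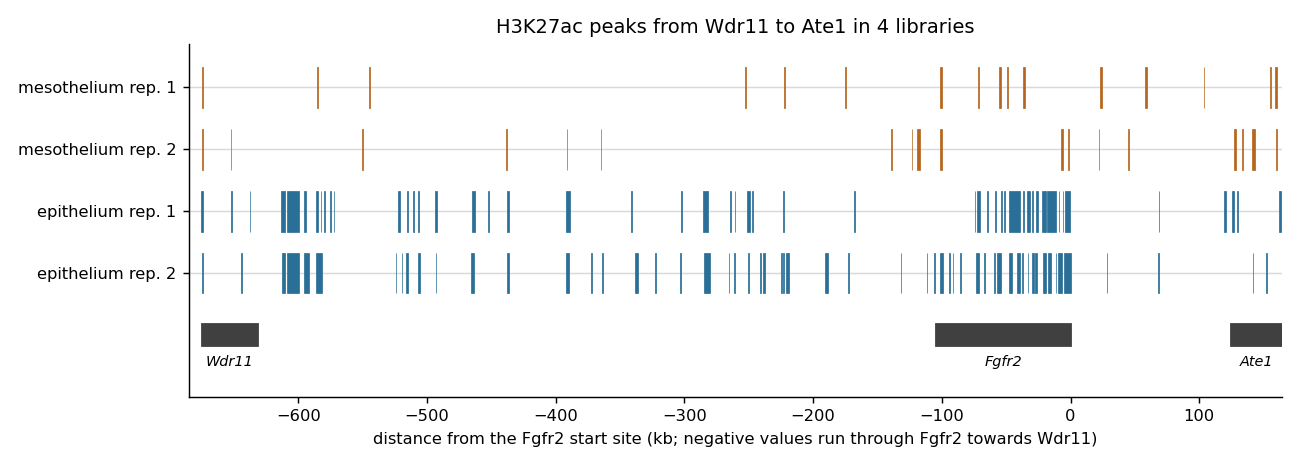
Called H3K27ac peaks from Wdr11 to Ate1, with mesothelium libraries in the upper 2 rows and epithelium libraries in the lower 2; the x axis is the distance from the Fgfr2 start in kb, and dark boxes are gene bodies. Peaks are dense in both epithelium rows over the Fgfr2 body and at the Wdr11 end of the interval, where the mesothelium rows hold few and scattered peaks.

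The genes on either side of this stretch were set beside it, since their domains reach into the intervals. The domain of Wdr11, which by the 50 kb rule takes in the nearest part of the interval, held 1.88 and 1.39 kb in mesothelium, against 18.5 and 20.7 kb in epithelium (log2 difference -3.18, SE 0.50, limma adjusted p = 0.00092). Its gene body alone held 0.959 and 1.39 kb in mesothelium, against 2.38 and 1.197 kb in epithelium, so within the gene the cell types overlapped. Wdr11 had a peak at its start in all 4 libraries. On the other side, the Fgfr2-Ate1 interval held 2.85 and 0.847 kb in mesothelium, against 1.55 and 1.96 kb in epithelium. The domain of Ate1, which encodes an arginyltransferase, held 11.7 and 11.4 kb in mesothelium, against 5.58 and 4.66 kb in epithelium, with an adjusted p of 0.17 (limma).

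The 3 tested domains nearest to Fgfr2 by Euclidean distance over the 4 centred log2 lengths were Sema3e (distance 0.73), Nrp1 (0.90) and Cab39l (0.90). Sema3e, a secreted semaphorin, held 6.92 and 4.84 kb in mesothelium, against 29.99 and 30.5 kb in epithelium. Nrp1, a semaphorin and VEGF co-receptor, held 10.7 and 8.91 kb in mesothelium, against 31.0 and 30.2 kb in epithelium. The likeness describes only 4 libraries.

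Of the other receptors, Fgfr3 came nearest to the pattern of Fgfr2 without passing the test. Fgfr3, a receptor best known for restraining bone growth, had 4.35 and 0 kb in mesothelium, against 6.91 and 6.00 kb in epithelium. Both mesothelium values lay below both epithelium values, but the mesothelium replicates lay far apart, and replicate 2 had no peak. The log2 difference was -2.1 (SE 0.80, limma adjusted p = 0.16). Without mesothelium replicate 1 it was -3.79 (adjusted p = 0.00084), and without mesothelium replicate 2 it was -0.36 (adjusted p = 0.83). It was -1.42 with 5 kb flanks, and with domains not cut at neighbouring genes it was -2.13 (adjusted p = 0.04). Mesothelium replicate 1 was also the library with more epithelial-marker length, 27 kb against 5.15 kb in replicate 2, and the part of this in the Fgfr3 value was not tested. Per length, Fgfr3 was covered about as densely as Fgfr2 in epithelium, at 16.7% and 14.5% of its 41.4 kb domain. Most of the Fgfr3 length lay in the low-coordinate flank towards Tacc3, with 3.59 and 0 kb in mesothelium, against 5.54 and 4.60 kb in epithelium. The Fgfr3 body held 0.485 and 0 kb in mesothelium, against 1.37 and 1.40 kb in epithelium, with an epithelial peak over or next to the start of the gene in both libraries. The domain of Tacc3, which encodes a spindle protein, held 0.662 and 2.37 kb in mesothelium, against 7.63 and 7.01 kb in epithelium (adjusted p = 0.067), and the flank lies between the 2 genes.

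Fgfr1, the receptor best known from mesenchyme, had short peaks in every library. Its domain held 1.22 and 1.54 kb in mesothelium, against 2.11 and 3.67 kb in epithelium. The libraries did not overlap, but the log2 difference of -0.75 (SE 0.67) did not pass the test (limma adjusted p = 0.60), and at a −log10 q of 2 or more its sign turned, to 0.19. A region inside the gene (chr8:25536522-25537975) had 1.22 and 1.10 kb in mesothelium, against 0 and 0.403 kb in epithelium. Another (chr8:25543123-25544942) was epithelium-only, with 0.498 and 1.82 kb in epithelium. Fgfr4, the receptor for FGF19-type ligands in liver, had 2.00 and 0.284 kb in mesothelium, against 0 and 0.473 kb in epithelium, values that overlapped (log2 difference 1.07, SE 0.92, limma adjusted p = 0.58). All of the mesothelial length of Fgfr4 lay in the high-coordinate flank towards Nsd1, and none in the gene body.

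Among the ligands, Fgf9 and Fgf2 had longer domains in mesothelium. Fgf9, which mesothelium is known to secrete in the mouse lung, held 2.38 and 12.9 kb in mesothelium, against 0.369 and 0.302 kb in epithelium. Every mesothelium value was above every epithelium value, with a wide gap between the mesothelium replicates. The log2 difference was 2.95 (SE 0.75, limma adjusted p = 0.027), and it was 1.94 (adjusted p = 0.41) without mesothelium replicate 2 and 2.90 (adjusted p = 0.054) without epithelium replicate 2. In all, 7 of 12 alternatives ended the Fgf9 call, and over the 12 the adjusted p ran between 0.0018 and 0.5. Replicate 2 was also the mesothelium library with more mesothelial-marker length, 70.3 kb against 30.3 kb, and with the larger cell number, 100k against 25k, and their part in the Fgf9 value was not tested. Peaks numbered 3 and 11 in mesothelium and 1 and 1 in epithelium. The Fgf9 body (chr14:58070671-58112854) held 1.79 and 11.2 kb in mesothelium, against 0 and 0.302 kb in epithelium. A mesothelium-only region of 7.30 kb near the high-coordinate end of the gene (chr14:58103587-58110889) held 1.45 and 5.88 kb in mesothelium, where the peaks of the replicates overlap only at their edges. At the Fgf9 start, mesothelium replicate 2 had a peak over all 250 bases of the promoter window, which has 11 CG pairs, and the other libraries had none within 11 kb.

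Fgf2, which encodes basic FGF, held 3.32 and 5.97 kb in mesothelium, against 0 and 0.836 kb in epithelium. The cell types did not overlap. The log2 difference was 2.66 (SE 0.74, limma adjusted p = 0.045), close to the threshold, and 8 of 12 alternatives ended the call, and over the 12 the adjusted p ran between 0.0035 and 0.32. Leaving out mesothelium replicate 1, mesothelium replicate 2 or epithelium replicate 1 gave adjusted p of 0.058, 0.22 and 0.28. All of the length lay in the gene body (chr3:37348477-37410106). A region (chr3:37379622-37381660) had peaks in 3 libraries, with 1.53 and 1.92 kb in mesothelium, against 0 and 0.836 kb in epithelium. Another (chr3:37397934-37399983) was mesothelium-only, with 0.441 and 2.05 kb. The last 5.12 kb of Fgf2 overlap the antisense neighbour Nudt6, and peaks there, 0 and 1.52 kb in mesothelium, against 0 and 0 kb in epithelium, cannot be assigned to either gene.

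Fgf1, which encodes acidic FGF and binds all FGF receptors, went the other way from Fgf2 and Fgf9. Its domain held 0.324 and 0.471 kb in mesothelium, against 4.13 and 9.25 kb in epithelium. Each mesothelium library had 1 short peak, and the epithelium libraries had 4 and 9, with no overlap of the lengths. The log2 difference was -2.85 (SE 0.69, limma adjusted p = 0.019), but the adjusted p was 0.27 without epithelium replicate 2 and 0.063 when scaled to total covered length. In all, 4 of 12 alternatives ended the Fgf1 call, and over the 12 the adjusted p ran between 0.0058 and 0.32. Of 11 merged regions, 4 were epithelium-only and 7 were in 1 library. Fgf1 (chr18:38838672-38929470) lies whole inside Arhgap26, so its domain has no flanks and its peaks may belong to either gene. The domain of Arhgap26 held 5.55 and 5.40 kb in mesothelium, against 22.3 and 17.5 kb in epithelium (log2 difference -1.70, SE 0.41, limma adjusted p = 0.019).

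**Figure D3:**
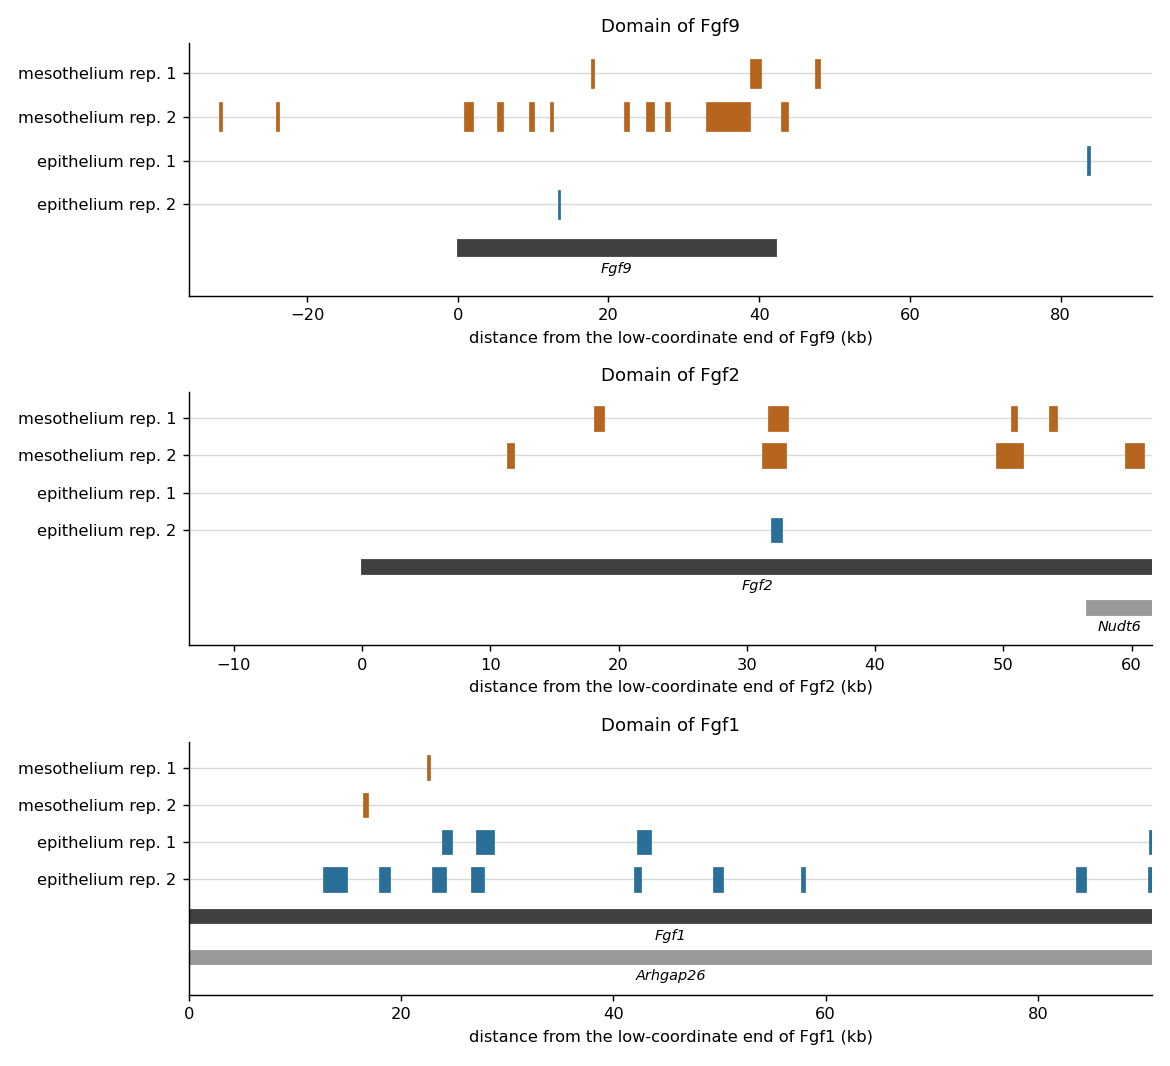
Called H3K27ac peaks in the domains of Fgf9, Fgf2 and Fgf1, with mesothelium libraries above epithelium libraries; the x axis is the distance from the gene's low-coordinate end in kb, dark bars are the genes and grey bars the coding genes that overlap them. Mesothelium replicate 2 has 11 peaks in the Fgf9 domain and epithelium replicate 2 has 9 in the Fgf1 domain.

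Fgf10, the mesenchymal ligand that drives branching, had about the same short length under peaks in both cell types, though a p above the threshold does not show that they are alike. Its domain held 0.805 and 1.26 kb in mesothelium, against 0.869 and 1.19 kb in epithelium, so the libraries overlapped. The log2 difference was 0.05 (SE 0.75, limma adjusted p = 0.98), and its sign turned under 5 of 11 alternatives. The position of the peaks differed: the gene body held 0 and 0 kb in mesothelium, against 0.869 and 1.19 kb in epithelium, and the flanks 0.805 and 1.26 kb in mesothelium and none in epithelium. No merged region of Fgf10 had a peak in more than 1 library. With the gene body plus 5 kb in place of 50 kb, the log2 difference was -1.59 (adjusted p = 0.37). Fgf7, a mesenchymal ligand of epithelial FGFR2 that lies inside Fam227b, held 1.31 and 0 kb in mesothelium, against 0.511 and 0 kb in epithelium. Fgf18, a mesenchymal ligand of late lung development, held 0.965 and 0.318 kb in mesothelium, against 0.637 and 0 kb in epithelium. The libraries overlapped for both, and both were below the minimum mean for testing.

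**Figure D4:**
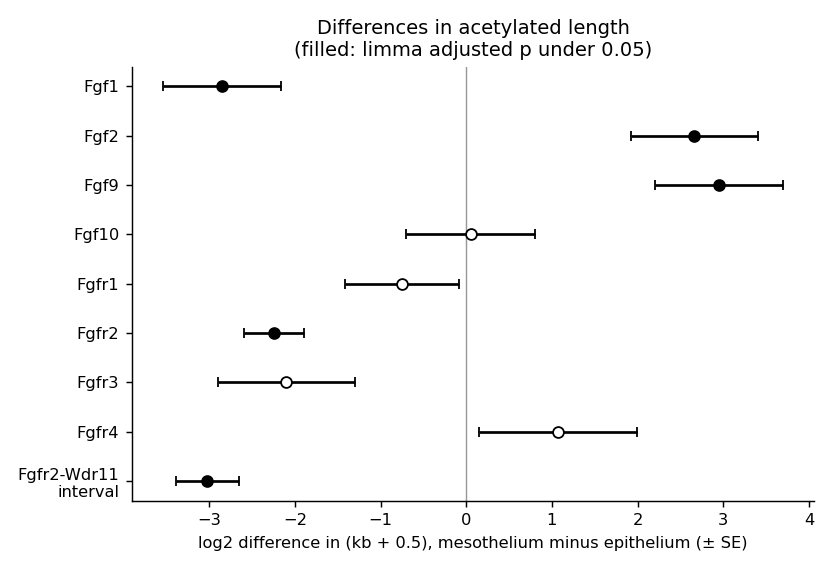
Difference in log2(kb + 0.5), mesothelium minus epithelium, with its standard error, for the 8 tested FGF gene domains and the Fgfr2-Wdr11 interval; filled points have a limma adjusted p under 0.05. Fgf2 and Fgf9 lie to the right of 0, and Fgf1, Fgfr2 and the interval to the left.

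At the gene ends, taken as both ends of the annotated gene span, no FGF gene had a peak in both mesothelium libraries and in no epithelium library. That class holds 3.00% of all coding genes. Fgf1 and Fgfr2 were the 2 genes with a peak within 1 kb of an end in both epithelium libraries and in no mesothelium library, a class that holds 2.01%. Both were known to be in this class when the genes were listed. Fgf2 and Fgf9 had a peak within 1 kb of an end in mesothelium replicate 2 alone, that of Fgf2 at its far end, where it overlaps Nudt6. Fgfr3 had a peak at its start in both epithelium libraries, and at its far end in mesothelium replicate 1. Within 1 kb of the annotated start alone, which was not used for Fgf1 and Fgfr1, Fgfr2 and Fgfr3 were epithelium-only and none was mesothelium-only. The shares of all coding genes for the start alone are not given here, so these counts stand without a background. Fgf7, Fgf10, Fgf18, Fgfr1 and Fgfr4 had no peak within 1 kb of either end in any library, a class that holds 50.5%. Without mesothelium replicate 1, Fgf2 and Fgf9 became mesothelium-only and Fgfr3 epithelium-only. These changes follow from the definition, since mesothelium was then judged on replicate 2 alone. With a window of 2 kb Fgf9 became mesothelium-only and Fgfr2 was no longer epithelium-only. The share of all coding genes in each class at 2 kb is not given here. Over the 10 domains, 96 merged regions comprised 3 mesothelium-only, 13 epithelium-only, 10 in 3 libraries, 1 in 1 library of each cell type and 69 in 1 library. The background of all merged regions is 2.60% mesothelium-only, 3.31% epithelium-only and 80.8% in 1 library.

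Summed by role, over domains of unequal length, the receptor side held more than the ligand side in both epithelium libraries. The 4 receptor domains held 13.3 and 9.58 kb in mesothelium, against 43.3 and 45.5 kb in epithelium. The 6 ligand domains held 9.098 and 20.9 kb in mesothelium, against 6.52 and 11.6 kb in epithelium, so the ligand sums overlapped between cell types. Receptors made up 59.4% and 31.4% of the FGF length in mesothelium and 86.9% and 79.7% in epithelium, or 45.4% ± 19.8 and 83.3% ± 5.09 (SD, n = 2 each). The shares did not overlap, but the smallest p an exact permutation test of 2 against 2 libraries can give is 0.33, so no test was made. Without Fgfr2, receptors made up 45.4% and 8.0% in mesothelium and 58.1% and 46.7% in epithelium, shares that still did not overlap. Fgfr2 alone made up 43.2% and 80.9% of the receptor length in mesothelium and 79.2% and 77.7% in epithelium.

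**Figure D5:**
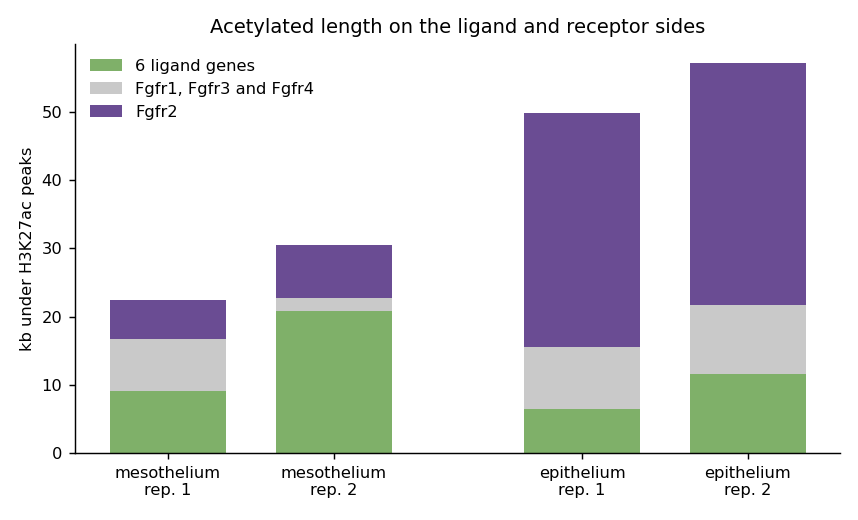
Length under H3K27ac peaks (kb) summed over the 6 ligand domains (green), over Fgfr1, Fgfr3 and Fgfr4 (grey) and in Fgfr2 (purple), stacked for each library with mesothelium on the left. The purple part is about 34 to 35 kb in epithelium libraries and under 8 kb in mesothelium libraries.

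Of 12 response genes downstream of the receptors, 9 were tested, 0 were longer in mesothelium, against 1.41% of all tested domains, and 3 longer in epithelium, against 2.53%. This list and those below were chosen with earlier results of these data known. The epithelium-only peaks at the ends of Etv5 and Spry1 were among those, so the calls are not independent of the choice. Their median log2 difference was -1.2, against 0.03 over all tested domains. Etv5, an ETS factor induced by FGF signalling, held 0.885 and 0 kb in mesothelium, against 15.4 and 14.9 kb in epithelium (log2 difference -4.18, SE 0.65, limma adjusted p = 0.0008). Spry1, a feedback inhibitor, held 0 and 0.590 kb in mesothelium, against 5.35 and 8.77 kb in epithelium (log2 difference -3.26, SE 0.70, adjusted p = 0.0091). Spred1, an inhibitor of RAS-ERK signalling, held 5.66 and 4.19 kb in mesothelium, against 16.9 and 18.3 kb in epithelium (log2 difference -1.69, SE 0.43, adjusted p = 0.028). In none of these 3 genes did the cell types overlap, as in 47.8% of all tested domains. The 3 were named for their calls, so this adds no support. The other tested response genes were not called and went both ways. Etv1, Il17rd and Spry4 had log2 differences of 0.62, 1.14 and 1.25, towards mesothelium. Spry2, Dusp6 and Spred2 had -0.51, -1.2 and -1.23, towards epithelium. Neither Etv4 nor Fosl1 had a peak in any library.

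Of 10 adaptor and relay genes, all were tested, and 1 was longer in mesothelium (1.41% of all tested domains) and 0 in epithelium (2.53%), at a median log2 difference of 0.79. That gene, Frs2, which docks signalling proteins to the receptors, held 15.1 and 16.2 kb in mesothelium, against 3.00 and 4.48 kb in epithelium (log2 difference 2.01, SE 0.46, limma adjusted p = 0.014). Of 16 heparan sulphate genes, 12 were tested, with 1 call in each direction (1.41% of all tested domains longer in mesothelium, 2.53% in epithelium) and a median log2 difference of -0.82. Sulf1, a sulphatase that trims heparan sulphate outside the cell, held 17.2 and 21.0 kb in mesothelium, against 1.64 and 3.07 kb in epithelium (log2 difference 2.88, SE 0.49, adjusted p = 0.0015). Sdc1, a heparan sulphate proteoglycan of epithelia, held 5.16 and 3.03 kb in mesothelium, against 21.1 and 20.6 kb in epithelium (log2 difference -2.20, SE 0.44, adjusted p = 0.0064). Neither gene's cell types overlapped, as in 47.8% of all tested domains, which adds no support, since both were named for their calls.

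Of the other 16 FGF ligand genes, 3 were tested and 0 were called in either direction, against 3.94% of all tested domains. So few genes are too few to read that count. Fgf12 and Fgf14, which encode intracellular FGFs, lay nearest to the threshold. Fgf12 held 1.30 and 0.450 kb in mesothelium, against 5.06 and 2.74 kb in epithelium (unadjusted p = 0.028, limma adjusted p = 0.21). Fgf14 held 0.385 and 1.75 kb in mesothelium, against 2.71 and 2.76 kb in epithelium (adjusted p = 0.42). Fgf4, Fgf8, Fgf15, Fgf20, Fgf21, Fgf22 and Fgf23 had no peak in any library. Of the 3 co-receptor and decoy genes, 2 were tested and 0 called, against the same 3.94%, and they too are too few. Fgfrl1, a receptor without a kinase, held 1.25 and 1.35 kb in mesothelium, against 5.59 and 6.42 kb in epithelium (adjusted p = 0.11), and Kl, a co-receptor for endocrine FGFs, held 1.26 and 0 kb in mesothelium, against 0 and 2.73 kb in epithelium (adjusted p = 0.89).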

How the data were processed

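H3K27ac CUT&RUN libraries of 2 mesothelium and 2 epithelium samples were analysed, grouped by their titles; 2 IgG libraries were not analysed here. Per the submitters' processing notes, the build was mm10 and the tools included MACS2 2.2.9.1, Bowtie2 2.5.3, bedtools 2.31.1, cutadapt 4.8 and DiffBind 3.6.5, with deepTools 3.5.5, FastQC, HOMER and edgeR, named with no role. Not given in the sources used here: the peak caller's settings. Every library had its own deposited list of broad peaks. Of the columns the authors deposited, the score and the −log10 p enter no result. The deposited −log10 q ranks peaks within a list and sets the alternative threshold of 2. It also picks the peaks where their numbers are made equal, with ties broken by the ratio, a peak's fold enrichment. The lowest −log10 q was 1.00 to 1.03. The lists hold no counts, so no count model was run. Called length can move with sequencing depth, unknown here, and with cell number. The titles' cell numbers lie partly outside the range given in the protocol.

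Between 1 and 8 peaks per library, off chromosomes 1 to 19, X and Y, were left out. Gene bodies, strands and promoter windows came from RefSeq tables of GRCm38.p6. Covered length per domain was computed in Python 3.11.15 (pandas 2.3.3, numpy 2.4.6), median-centred over 6917 domains with a peak in all 4 libraries, and tested two-sided on log2(kb + 0.5) with limma 3.58.1 (R 4.3.3) with a trend and Benjamini-Hochberg adjustment over all tested domains; intergenic intervals of at least 100 kb were tested likewise. A −log10 q of at least 2 and other alternatives are given in the closing section. Merged regions join overlapping peaks of the 4 libraries. The coverage and limma steps were checked on simulated data. Figures used matplotlib 3.10.9. Named were all 10 FGF genes, the neighbours that share their flanks, the 3 domains nearest to Fgfr2, called members of 5 pathway lists (up to 2 others where none was called) and marker genes. The tested response genes without a call were named as well. The members and lists were chosen with earlier results of these data known. The epithelium-only peaks at the ends of Fgf1, Fgfr2, Etv5 and Spry1 were among those known.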

Additional observations from a re-analysis of the deposited data

How the results depend on the processing

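The peak lists and 2 libraries per cell type limit the precision, since called length depends on unknown depth; in 1861 domains the unadjusted p was under 0.05. Main counts were 2 FGF domains longer in mesothelium and 2 longer in epithelium, and 148 and 265 over all domains. With a −log10 q of at least 2 all 4 counts were 0 (960 domains at an unadjusted p under 0.05), the regions found in mesothelium libraries only numbered 1 (of 3) and those in epithelium libraries only 3 (of 13), 0 genes had epithelium-only gene-end peaks, the receptor share in epithelium was 92.4%, and Fgfr1 turned to 0.19. With a pseudocount of 0.1 kb the FGF counts were 0 and 0 and the counts over all domains 2 and 2 (1650 at an unadjusted p under 0.05). Scaled to total covered length, which moved the median over domains to 0.11, the FGF counts were 0 and 1 and the counts over all domains 88 and 104. With equal numbers of peaks, 5 kb flanks and uncut domains, 0, 1 and 1 FGF domains were longer in mesothelium, and 2, 2 and 3 in epithelium. Over all domains, 130, 115 and 202 were longer in mesothelium and 203, 203 and 384 in epithelium, of 10027, 9558 and 16888 tested. Under the same settings Fgf10 turned to -0.05, -1.59 and -0.04. A gene-end window of 2 kb gave 1 mesothelium-only and 1 epithelium-only FGF gene, against 0 and 2, without a share of all coding genes to set beside it. Requiring 25% of a region to be covered left 0 mesothelium-only regions. The cause of these changes was not tested.

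Leaving out each library in turn, with the lone library assumed to vary like the other group, gave 0 to 1 FGF domains longer in mesothelium and 1 to 3 in epithelium, and 112 to 171 and 87 to 468 over all domains. The interval ranged from -3.39 to -2.58, and Fgf10 from -0.18 to 0.22, with -0.06 without mesothelium replicate 2. FGF genes with mesothelium-only gene-end peaks numbered 0 to 2 and with epithelium-only ones 2 to 3, and regions numbered 3 to 26 and 15 to 37. Classes were judged on the libraries left, so a cell type down to 1 library needed a peak in that library alone. Single-library regions could thus enter a class. Receptor shares were 31.4% to 59.4% in mesothelium and 79.7% to 86.9% in epithelium. Fgf1, Fgf2, Fgf9, Fgfr2, Fgfr3 and Fgfr4 kept their direction under each alternative that could be fitted. Same-numbered libraries did not deviate together (r = 0.029 over 10483 domains). That value cannot show whether they share a pool of lungs or a batch, which stays unknown. A replicate block gave 203 and 339 calls over all domains, 2 and 2 FGF calls, and an interval difference of -3.02 (limma adjusted p = 6.4e-14).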

Other observations

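The Fgfr2-Wdr11 interval holds 11 annotated noncoding genes, most of them long noncoding RNAs. Epithelium-only regions overlapped Gm33122, Gm39094, Gm33248 and Gm33323 in the part nearest to Wdr11. The region that overlaps Gm33248 near its low-coordinate end (chr7:129671294-129675076) held no peak in mesothelium and 1.44 and 3.63 kb in epithelium. Another in Gm33248 (chr7:129680352-129685238) held 0.898 and 0 kb in mesothelium, against 2.25 and 4.53 kb in epithelium. The region in Gm33323 (chr7:129772718-129774698) held no peak in mesothelium and 1.98 and 0.641 kb in epithelium. Outside any annotated gene, the epithelium-only region at chr7:129801300-129803701 held 1.85 and 2.02 kb in epithelium, 464.3 kb from the Fgfr2 start. These are lengths of DNA under peaks and carry no measure of the transcripts.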
